A study of Mus musculus with 4 samples.

Results

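Ketone body metabolism in muscle was described here through 8 genes, which were chosen by name from the 51826 gene rows of the deposited count table. They encode the enzymes that oxidise or synthesise ketone bodies (Bdh1, Oxct1, Acat1, Acat2, Aacs and Bdh2) and carriers that move them or related acids across membranes (Slc16a1 and Slc16a6). The genes were picked with the genotype differences of these samples already known, so their differences between genotypes are given as a description and are not tested here. Each of the 8 genes stood on 1 row, and all 8 were among the 16120 genes that passed the filter on low counts.

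RNA came from the quadriceps, a mixed thigh muscle, of 2 WT and 2 Mef2dα2 Eko mice, with 1 library per mouse. All 4 mice were C57BL6/J males of about 20 weeks, were kept on chow and were not trained, and their muscles were taken within a single hour of the day. In the Mef2dα2 Eko mice the muscle-specific α2 exon of Mef2d, which encodes a MEF2 transcription factor, was removed from the germline with Cas9 and guide RNAs, so every tissue carried the deletion, and the founder line of the sequenced mice is not named in the labels. Expected counts, the read numbers that RSEM assigns to each gene, were compared between the genotypes to ask which transcripts depend on this exon.

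The libraries held between 72626757 and 85176059 expected counts, and TMM factors, which scale the libraries to one another, lay between 0.985 and 1.01. A level of 3 counts, taken as the smallest that a library can show, came to between 0.0348 and 0.0419 CPM, the counts scaled to each library's normalised total, which covers counting error only. Chi-square divided by its degrees of freedom was at least 35.9 for any 2 libraries, so no library was a copy of another. The whole-gene counts of Mef2d do not check the deletion, since most of its exons remain, and they were 259, 227, 252 and 241 CPM in WT 1, WT 2, Eko 1 and Eko 2. Fast fibre genes led by Myh4 and Atp2a1 dominated all 4 libraries, as in a muscle of mostly fast fibres, and the sum of 8 hepatocyte markers stayed at or below 0.140 CPM, with Alb at no more than 4 counts.

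The liver releases 3-hydroxybutyrate and acetoacetate into the blood during fasting and long exercise, and muscle, heart and brain burn them. In the mitochondria of these tissues BDH1 oxidises 3-hydroxybutyrate to acetoacetate, OXCT1 transfers CoA from succinyl-CoA to acetoacetate, and ACAT1 splits the resulting acetoacetyl-CoA into acetyl-CoA for the citrate cycle. In the cytosol AACS activates acetoacetate for lipid synthesis and ACAT2 acts on acetoacetyl-CoA at the entry to sterol synthesis, while the monocarboxylate transporter MCT1, encoded by Slc16a1, carries ketone bodies, lactate and pyruvate through the plasma membrane.

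The first enzyme of ketone oxidation was lower in the Mef2dα2 Eko mice. Bdh1 was at 29.8 and 28.1 CPM in WT 1 and WT 2 and at 13.5 and 10.7 CPM in Eko 1 and Eko 2, from 2261, 2271, 1162 and 763 counts. Both Mef2dα2 Eko mice lay far below both WT mice. The mean was 28.9 ± 1.21 CPM in WT and 12.1 ± 1.99 CPM in Mef2dα2 Eko mice (SD, n = 2 each), so the Mef2dα2 Eko level was 41.7% of the WT level. The log2 fold change was -1.26 (SE 0.12, 95% interval -1.54 to -0.98). The WT mice differed from each other by 1.06-fold and the Mef2dα2 Eko mice by 1.26-fold, so the difference between genotypes was wider than either spread. In RNA of whole muscle, fewer cells that express a gene and less RNA in each cell cannot be told apart.

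The enzymes that follow BDH1 in the pathway showed no such difference. Oxct1 was at 290, 347, 310 and 313 CPM in WT 1, WT 2, Eko 1 and Eko 2, with both Mef2dα2 Eko values between the WT values. Its log2 fold change was -0.03 (SE 0.09, 95% interval -0.26 to 0.19), an interval that reaches from a level 16.2% lower to one 14.3% higher. Acat1 was at 131 and 129 CPM in WT mice and at 130 and 126 CPM in Mef2dα2 Eko mice, and the groups overlapped. Its log2 fold change was -0.03 (SE 0.06, 95% interval -0.18 to 0.13), so these libraries leave room for a level up to 11.6% lower or 9.08% higher. Acat1 was the most tightly bounded of the 8 genes, and Oxct1 was limited by its WT mice, whose coefficient of variation was 12.7%.

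The balance of the transcripts in the pathway differed between the genotypes. Levels of different genes were set against each other as CPM per kilobase of annotated exon. The Bdh1 level was 9.79% and 7.70% of the Oxct1 level in WT 1 and WT 2 and 4.14% and 3.25% in Eko 1 and Eko 2. Against Acat1, the Bdh1 level was 21.9% and 20.99% in WT mice and 10.01% and 8.18% in Mef2dα2 Eko mice. Both ratios were lower in each Mef2dα2 Eko mouse than in either WT mouse, and they use the same Bdh1 values as the difference above. The Acat1 level was 44.7%, 36.7%, 41.3% and 39.7% of the Oxct1 level in the same order of mice, so this ratio overlapped between genotypes.

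Among the cytosolic enzymes, Aacs was lower in the Mef2dα2 Eko mice. Aacs was at 3.85 and 3.43 CPM in WT mice and at 1.54 and 1.64 CPM in Mef2dα2 Eko mice, from 292, 277, 133 and 117 counts. The 2 groups were well apart, with the spread inside each far narrower than the gap. The Mef2dα2 Eko mean was 43.7% of the WT mean, and the log2 fold change was -1.19 (SE 0.16, 95% interval -1.58 to -0.81). Bdh1 and Aacs cannot be ranked, since their log2 fold changes differed by less than their standard errors and without Eko 2 were -1.10 for Bdh1 and -1.24 for Aacs. Acat2, which works beside AACS in the cytosol, was at 4.52, 4.22, 4.14 and 4.38 CPM in WT 1, WT 2, Eko 1 and Eko 2. Its groups overlapped, with a log2 fold change of -0.04 (SE 0.13, 95% interval -0.34 to 0.26). Per kilobase, the Aacs level was 56.2% and 53.6% of the Acat2 level in WT mice and at 24.6% and 24.7% in Mef2dα2 Eko mice.

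Bdh2, a cytosolic short-chain dehydrogenase also linked to siderophore synthesis, was close to the limit of detection in quadriceps. It had 18 and 10 counts in WT mice and 30 and 9 counts in Mef2dα2 Eko mice, between 0.124 and 0.348 CPM. The groups overlapped, and the log2 fold change of 0.42 had an interval from -1.10 to 1.94 (SE 0.64). No difference in Bdh2 was detectable at this depth, and a large one in either direction was within its interval. Per kilobase, Bdh2 was at most 2.36% of Bdh1 in any mouse.

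Of the transporters, Slc16a1 was lower in the Mef2dα2 Eko mice and Slc16a6 was not. Slc16a1 was at 42.3 and 43.1 CPM in WT mice and at 30.2 and 30.9 CPM in Mef2dα2 Eko mice. The mice of a genotype were almost alike and the genotypes did not overlap. The Mef2dα2 Eko mean was 71.5% of the WT mean, and the log2 fold change was -0.48 (SE 0.07, 95% interval -0.64 to -0.33). Slc16a6, which encodes MCT7, a carrier known for the export of 3-hydroxybutyrate from the liver, was at 6.06, 5.92, 6.10 and 5.62 CPM in WT 1, WT 2, Eko 1 and Eko 2. The groups overlapped, and its log2 fold change was -0.03 (SE 0.11, 95% interval -0.30 to 0.24).

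**Figure D1:**
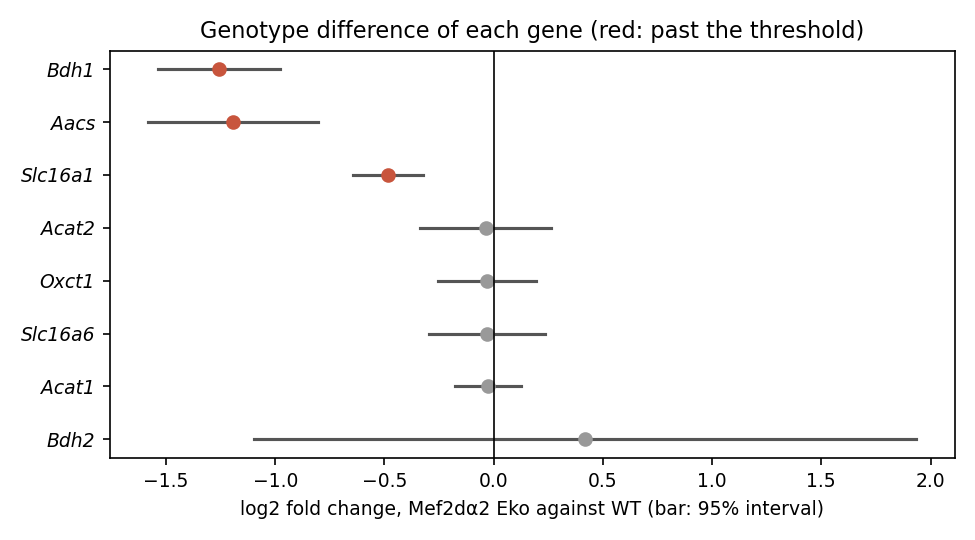
Log2 fold change of each of the 8 genes in Mef2dα2 Eko against WT quadriceps (x axis), with bars for the 95% interval and red points for genes past the threshold of 0.05 on the adjusted p of edgeR. Bdh1, Aacs and Slc16a1 lie left of 0 at -1.26, -1.19 and -0.48, the other genes except Bdh2 lie close to 0, and the interval of Bdh2 is the widest.

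In all, 3 of the 8 genes (Bdh1, Aacs and Slc16a1) were past the threshold of 0.05 on edgeR's adjusted p, each lower in Mef2dα2 Eko mice, where 0.310% of the 16120 genes tested were past it in that direction and 0.416% in either. The same 3 genes had both Mef2dα2 Eko mice below both WT mice, which held for 23.0% of the genes tested, and none of the 8 had both above, which held for 20.8% (43.8% in either direction). DESeq2 put the same 3 genes past the threshold, and 1.97% of all genes tested. These counts describe genes chosen from this contrast, and nothing is read from them. The median log2 fold change was -0.03 over the 8 genes and -0.01 over all genes tested. Without WT 1 Aacs was no longer past the threshold, at a log2 fold change of -1.11, and Slc16a1 was no longer past it without Eko 1 (-0.45) or without Eko 2 (-0.50), while Bdh1 remained past it whichever mouse was left out (-1.43 to -1.10).

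In WT muscle the 8 genes ranged over more than 3 orders of magnitude per kilobase of exon. Oxct1 was highest, at 86.0 ± 10.9 CPM per kilobase (SD, n = 2), followed by Acat1 at 34.7 ± 0.421, Slc16a1 at 9.66 ± 0.128 and Bdh1 at 7.44 ± 0.312. Acat2 at 1.72 ± 0.0844, Slc16a6 at 1.23 ± 0.0201, Aacs at 0.944 ± 0.0776 and Bdh2 at 0.0425 ± 0.0189 CPM per kilobase made up the low end. No neighbours in this order overlapped between the WT mice, and the order of the means was the same in Mef2dα2 Eko mice, where Bdh1 stood at 3.11 and Slc16a1 at 6.90 CPM per kilobase. Oxct1 and Acat1 supplied most of the summed level of the 8 genes, with Oxct1 between 58.2% and 64.5% in the 4 mice and Acat1 between 23.1% and 26.2%. Bdh1 made up 5.69% and 4.85% of that sum in WT mice and 2.62% and 2.09% in Mef2dα2 Eko mice.

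**Figure D2:**
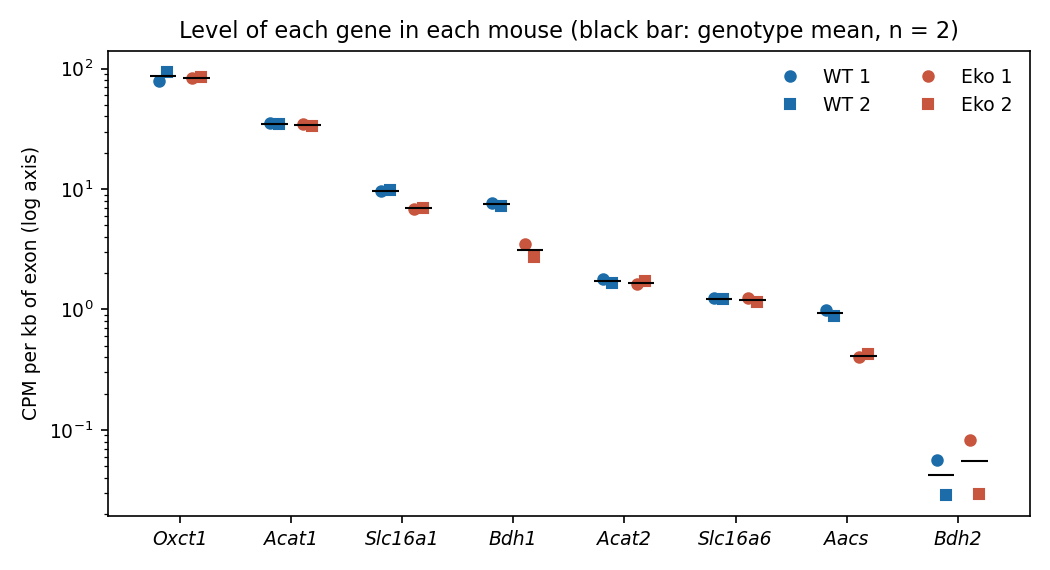
Level of each of the 8 genes in each mouse in CPM per kilobase of annotated exon (y axis, log scale), with circles and squares for the first and second mouse of a genotype and black bars for the mean of 2 mice. The order from Oxct1 to Bdh2 is the same in both genotypes, and the genotypes separate in Slc16a1, Bdh1 and Aacs.

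Sequence before the transcription start sites of the 3 genes past the threshold is shown because a transcription factor lost its muscle isoform in these mice. RefSeq on the GRCm38.p6 build gave windows for 6 of the 8 genes (all but Acat1 and Slc16a6), and Bdh1 had windows at both of its annotated starts. The 250 bases before each start, 7 windows in all, were searched on both strands for the 10-base MEF2 motif, for AGGTCA (the half-site of nuclear receptors), for CANNTG (the E-box), for GGGCGG (the GC box) and for CCAAT. Capitals mark the matches in the sequences below, which stop before the first exon base that GENCODE annotates on the same strand.
Bdh1, first start, chr16:31422047-31422279, + strand: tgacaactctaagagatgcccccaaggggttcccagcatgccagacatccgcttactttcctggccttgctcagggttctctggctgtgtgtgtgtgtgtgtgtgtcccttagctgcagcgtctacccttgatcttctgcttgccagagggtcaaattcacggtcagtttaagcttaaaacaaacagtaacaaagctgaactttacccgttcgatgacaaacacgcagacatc
Bdh1, second start, chr16:31428503-31428747, + strand: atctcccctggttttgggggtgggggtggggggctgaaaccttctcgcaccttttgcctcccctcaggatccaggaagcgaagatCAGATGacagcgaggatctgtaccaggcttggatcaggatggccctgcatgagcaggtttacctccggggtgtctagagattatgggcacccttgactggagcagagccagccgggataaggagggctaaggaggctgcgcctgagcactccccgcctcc
Aacs, chr5:125475623-125475813, + strand: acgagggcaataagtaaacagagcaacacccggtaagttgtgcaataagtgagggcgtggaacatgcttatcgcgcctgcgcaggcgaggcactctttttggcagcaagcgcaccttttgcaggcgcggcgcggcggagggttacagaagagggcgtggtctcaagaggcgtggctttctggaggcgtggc
Slc16a1, chr3:104638414-104638663, + strand: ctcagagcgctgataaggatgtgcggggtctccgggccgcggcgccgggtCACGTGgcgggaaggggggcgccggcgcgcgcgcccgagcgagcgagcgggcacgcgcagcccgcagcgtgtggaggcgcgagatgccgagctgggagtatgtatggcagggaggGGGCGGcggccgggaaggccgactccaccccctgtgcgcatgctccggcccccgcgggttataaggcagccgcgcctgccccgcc
The MEF2 motif had no match in the 7 windows and was present in 2.92% of the 32851 windows of all genes. AGGTCA had none either, against 14% of all windows. An E-box stood before the second Bdh1 start and before Slc16a1, in 2 of 7 windows against 66.2% of all, and a GC box stood before Slc16a1 and Acat2, against 32.7% of all. CCAAT was found before Bdh2 alone of the 7 windows, against 33.8% of all. The Slc16a1 stretch was GC-rich at 76.4% with 37 CG steps, whereas the stretch before the first Bdh1 start had 49.8% and 6 CG steps and that before Aacs had 59.2% and 16 CG steps. A match or its lack in these windows describes the letters alone and says nothing about where MEF2D binds.

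On the GRCm38 build with the GENCODE annotation, Bdh1 runs from 31422280 to 31458901 on the + strand of chromosome 16 with 7 transcripts, Aacs from 125475814 to 125517410 on the + strand of chromosome 5 with 6, and Slc16a1 from 104638668 to 104658462 on the + strand of chromosome 3 with 1. Counts were per gene, so the start or transcript behind the Bdh1 difference was not resolved. Some genes overlap others on the opposite strand, and the strand setting used for counting is not given in the sources used here, although the library kit marks strand. Gm15743, opposite Bdh1, had 31, 50, 37 and 16 counts in WT 1, WT 2, Eko 1 and Eko 2, which is little beside the counts of Bdh1. Slc16a6 shares 1052 exonic bases with Amz2, a gene at 58.9, 61.0, 55.0 and 55.8 CPM in the same mice, and Oxct1 shares 467 with BC037032, which had between 172 and 273 counts. The level of Slc16a6 is thus uncertain, since its opposite neighbour was far more abundant.

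The genes around the 8 loci mostly did not pass the test. Of 111 annotated genes that start within 200 kb of the start of one of the 8 genes, 48 were tested, and 1 was past the threshold, Tmem132b, a gene for a transmembrane protein that starts 55960 bp after Aacs. Tmem132b was at 24.3 and 22.7 CPM in WT mice and at 13.8 and 15.4 CPM in Mef2dα2 Eko mice. The genotypes did not overlap, and its log2 fold change was -0.69 (SE 0.09, adjusted p = 0.0463 by edgeR's quasi-likelihood fit, with Benjamini-Hochberg over all genes). It was past the threshold in 13 of 14 alternative fits, with adjusted p between 1.41e-09 and 0.0556. Around Bdh1 3 genes were tested, with log2 fold changes from -0.64 (Gm15743, adjusted p = 0.634) to 0.23, and around Slc16a1 9 genes, from -0.56 to 0.20.

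The wider pathway was read from 8 lists with 118 genes that are not among the 8, of which 103 were tested. By the same edgeR test, 0 of the 103 were past the threshold, against 0.416% of all genes tested, and 12 (11.7%) had an unadjusted p under 0.05, against 11.6% of all genes. Both Mef2dα2 Eko mice lay below both WT mice in 36 of the 103 (35%) and above them in 14 (13.6%), against 23.0% and 20.8% of all genes. Over these and 9 lists of cell type markers together, 173 of 197 genes were tested, with 0 called by edgeR, 31 (17.9%) at an unadjusted p under 0.05 and 0 called by limma-voom. DESeq2 called 9 (5.20%, against 1.97% of all genes) and edgeR's likelihood ratio test 8 (4.62%, against 1.94%). The 9 genes of DESeq2 were Dbt of leucine breakdown, Nptn, a partner of monocarboxylate transporters, the macrophage markers Lyz2, C1qb and C1qc, the fibre markers Myh1, Myh2 and Myoz2, and Lpl, and they were named after their values were seen.

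Genes that make ketone bodies or break down leucine and tyrosine to acetoacetate had a median log2 fold change of 0.17 over 13 tested of 15, with both Mef2dα2 Eko mice above both WT mice in 6 and below them in 1. Over all genes tested, the shares above and below were 20.8% and 23.0%. Bckdha, a subunit of the branched-chain ketoacid dehydrogenase, was at 68.6, 81.2, 81.3 and 86.8 CPM in WT 1, WT 2, Eko 1 and Eko 2 (log2 fold change 0.17, SE 0.09, adjusted p = 0.554). Ivd, which oxidises the isovaleryl-CoA derived from leucine, was at 64.8, 77.3, 86.0 and 86.6 CPM (log2 fold change 0.28, SE 0.09, adjusted p = 0.331). The upper WT value of Bckdha almost met the lower Mef2dα2 Eko value, and neither gene passed the test.

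None of the tested relatives of the 8 genes was past the threshold. The paralogues Oxct2a, Oxct2b and Acat3 had at most 10 counts in any mouse, so the Oxct1 and Acat2 signals had little to share with them. The list of 11 genes held these paralogues, thiolases and other enzymes of fatty acid oxidation. In it 7 genes were tested, with a median log2 fold change of -0.10, led by Acaa2 (-0.20, SE 0.08, adjusted p = 0.396) and Hadhb (0.00, SE 0.08, adjusted p = 0.992), both of fatty acid oxidation. Synthetases that, like AACS, activate acetate and related acids had a median of -0.15 over 6 tested of 7, with a range from -1.69 to -0.01. Of these, 3 were lower and 0 higher in both Mef2dα2 Eko mice, against 23.0% and 20.8% of all genes tested. The lowest was Acsm3, a medium-chain acyl-CoA synthetase named after its values were seen, with 44, 19, 14 and 6 counts in WT 1, WT 2, Eko 1 and Eko 2 (log2 fold change -1.69, SE 0.62, adjusted p = 0.3705). Acss1, the mitochondrial acetyl-CoA synthetase, had a log2 fold change of -0.01 (SE 0.12) and Acss2, its cytosolic counterpart, of -0.14 (SE 0.09), neither past the threshold.

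Genes of succinyl-CoA supply and the citrate cycle, into which ketone carbon flows, showed little difference. All 18 were tested, with a median log2 fold change of -0.00 and a range from -0.22 to 0.17. Sdha, a subunit of succinate dehydrogenase, was at 569, 583, 574 and 610 CPM in WT 1, WT 2, Eko 1 and Eko 2, and the groups overlapped. Sterol synthesis, which shares acetoacetyl-CoA with ACAT2 and AACS, had a median of -0.13 over 20 genes, with 8 lower and 0 higher in both Mef2dα2 Eko mice and 0 past the threshold. Over all genes tested, 23.0% were lower and 20.8% higher in both Mef2dα2 Eko mice. Its leading genes Fdft1 and Hmgcs1 had log2 fold changes of 0.05 (SE 0.07) and -0.10 (SE 0.07). Fatty acid synthesis had a median of -0.23 over 10 genes, 6 of them lower in both Mef2dα2 Eko mice, against the same 23.0% of all genes. Scd1, a desaturase, was at 138, 99.3, 96.0 and 41.5 CPM (log2 fold change -0.78, SE 0.35, adjusted p = 0.459), and Acacb, which makes malonyl-CoA in muscle, had a log2 fold change of -0.14 (SE 0.07, adjusted p = 0.477). Scd2, another desaturase of this list named after its values were seen, had a log2 fold change of -0.27 (SE 0.07, adjusted p = 0.245).

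The carriers and partners of the Slc16a1 family did not move in one direction. The 17 listed genes had a median log2 fold change of 0.10 over 13 tested, with a range from -0.49 to 1.18 and none past the threshold. Bsg, the chaperone that MCT1 needs at the membrane, was at 332, 378, 375 and 366 CPM in WT 1, WT 2, Eko 1 and Eko 2 (log2 fold change 0.06, SE 0.08, adjusted p = 0.820). Slc16a3, which encodes MCT4, the lactate exporter of fast fibres, was at 329, 257, 250 and 250 CPM (log2 fold change -0.23, SE 0.11, adjusted p = 0.4998), with WT 1 standing above the other mice. The 16 tested of 20 regulators and sensors had a median of -0.14. Pdk4, which restrains pyruvate oxidation in fasting, was at 307, 275, 167 and 273 CPM (log2 fold change -0.40, SE 0.20, adjusted p = 0.503), with Eko 1 low and Eko 2 near the WT mice. Cpt1b, the gate of fatty acid entry into muscle mitochondria, had a log2 fold change of -0.12 (SE 0.06, adjusted p = 0.539).

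**Figure D3:**
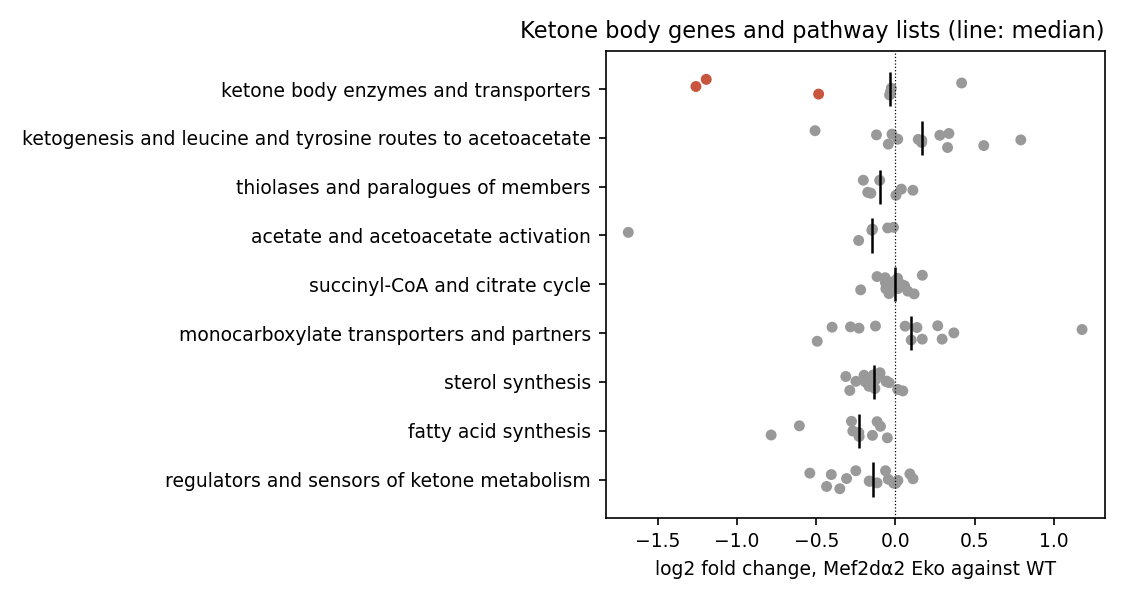
Log2 fold change in Mef2dα2 Eko against WT quadriceps (x axis) of the 8 ketone body genes and of the tested genes in 8 pathway lists (rows), with a point per gene, a black line at each median and red for genes past the threshold. The red points are Bdh1, Aacs and Slc16a1, and none of the 103 listed genes is red.

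Most macrophage and adipocyte markers had lower means in the Mef2dα2 Eko mice. The 9 macrophage markers summed to between 48.3 and 61.1 CPM in WT mice and between 30.9 and 40.0 CPM in Mef2dα2 Eko mice, with 7 of 9 lower in both Mef2dα2 Eko mice and a median log2 fold change of -0.69, led by Lyz2 (-0.73, SE 0.14, adjusted p = 0.120) and C1qa (-0.62, SE 0.18, adjusted p = 0.280). The 11 adipocyte markers had a median of -1.08, with 6 of 11 lower in both Mef2dα2 Eko mice, and summed to 710 and 724 CPM in WT and 536 and 528 CPM in Mef2dα2 Eko mice, mostly from Lpl, which muscle also expresses. Over all genes tested, 23.0% were lower in both Mef2dα2 Eko mice. Cfd, the adipocyte protease adipsin, was at 48.5, 16.9, 8.61 and 5.72 CPM in WT 1, WT 2, Eko 1 and Eko 2, so WT 1 held the most. Adipoq, the adipocyte hormone adiponectin, named after its values were seen, was at 9.87, 4.84, 4.86 and 2.01 CPM, and its groups overlapped. No marker of either list was at 0 in all mice, and 0 were past the threshold by edgeR's quasi-likelihood test. The likelihood ratio test of edgeR called markers of both lists, among them Lyz2, C1qb, C1qc and Cfd. The part of these markers in the values of Bdh1, Aacs and Slc16a1 was not tested.

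Of the slow and oxidative fibre markers, 2 of 12 lay lower in both Mef2dα2 Eko mice and 0 higher, against 23.0% and 20.8% of all genes tested. Myh7, the slow myosin heavy chain named after its values were seen, was at 113, 339, 237 and 145 CPM in WT 1, WT 2, Eko 1 and Eko 2, and its groups overlapped. The 12 slow and oxidative fibre markers had a median log2 fold change of -0.21, with a range from -0.67 to 0.18. They summed to between 2053 and 2736 CPM in WT and between 1502 and 1976 CPM in Mef2dα2 Eko mice. Myh2, the myosin of fast oxidative fibres and the main part of that sum, was at 1576, 1709, 1264 and 1041 CPM (log2 fold change -0.51, SE 0.11, adjusted p = 0.161). Myoz2, a slow-fibre Z-disc protein named after its values were seen, was at 39.3, 39.7, 28.7 and 21.03 CPM (log2 fold change -0.67, SE 0.14, adjusted p = 0.154). Myh2 and Myoz2 were lower in both Mef2dα2 Eko mice, and the part of the fibre markers in the values of Bdh1, Aacs and Slc16a1 was not tested. The remaining lists had medians of 0.11 for 11 fast fibre markers, -0.02 for 7 endothelial, 0.04 for 9 fibroblast and tenocyte, 0.24 for 5 Schwann cell and -0.00 for 6 blood cell markers. Both Mef2dα2 Eko mice lay above both WT mice in 5 of 11 fast fibre markers and below them in 1. For the 5 Schwann cell markers these counts were 3 and 0.

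**Figure D4:**
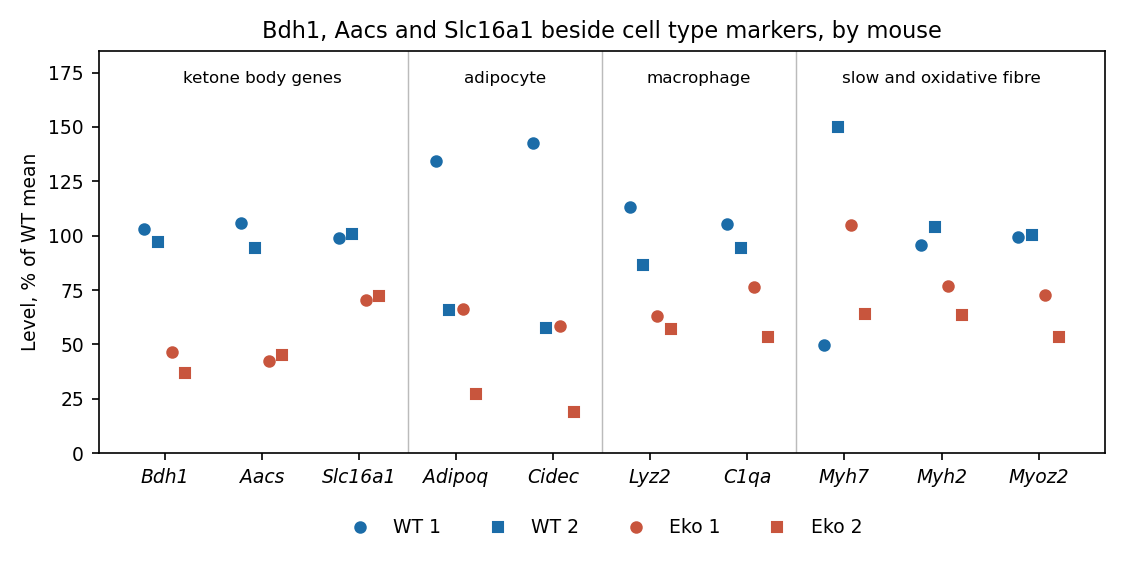
Level of Bdh1, Aacs and Slc16a1 and of adipocyte, macrophage and fibre markers in each mouse as a percent of the WT mean (y axis from 0), with blue for WT, red for Mef2dα2 Eko, and circles and squares for the first and second mouse. Both Mef2dα2 Eko mice lie below both WT mice in Bdh1, Aacs, Slc16a1, Lyz2, C1qa, Myh2 and Myoz2, and the genotypes overlap in Adipoq, Cidec and Myh7. Adipoq and Cidec do not stand for the adipocyte list, where 6 of 11 markers, not drawn here, lay lower in both Mef2dα2 Eko mice.

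The genes whose profile over the 4 mice was nearest to that of Bdh1 were low in counts. Likeness was measured as the root mean square difference of log2 CPM after each gene was centred on its own mean, over 4 mice with 2 in each genotype, so it describes these mice alone. Among the nearest of the genes tested were Tmem82 (0.0447), Ccnjl (0.0485), Tmem53 (0.0655) and Spag5 (0.0741). They had between 7 and 211 counts in a mouse, far fewer than Bdh1, so their likeness is loosely measured. Among the other ketone body genes, Aacs was at rank 22, at 0.157, and Slc16a1 was at rank 659, at 0.416, while the remaining genes were at rank 5771 or beyond.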

How the data were processed

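PolyA RNA of 4 quadriceps was sequenced with a stranded kit as paired-end reads. The authors aligned the reads to mm10 (the submitters' processing notes name STAR 2.6.1a) and estimated an expected count per gene with RSEM and an Ensembl annotation of GRCm38, and the expected counts were deposited without normalization. All deposited values were whole numbers, so rounding changed none, and the strand setting of the counting is not given in the sources used here.

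Groups came from the labels. Genes that passed edgeR's default filter (16120 of 24621 with any count) were compared by edgeR 4.0.16 in R 4.3.3 (quasi-likelihood F test), genotype as the sole term, TMM scaling and Benjamini-Hochberg adjustment at 0.05. Intervals are 95% intervals of the fit. A single gene's exact permutation test of 2 against 2 cannot go below p = 0.333 and was not used. The 8 genes and all lists were chosen with earlier results of these data known. The text names the 8 genes, in each list the genes past the threshold and the 2 highest per kilobase, genes past the threshold within 200 kb, the 5 profiles nearest Bdh1 and opposite-strand genes, except a few genes that are not reported here. Exon lengths came from GENCODE M21, which matched 97.0% of the genes tested. The fit was also run on simulated data, the outcome is not given here, and no result rests on that run. Alternatives used DESeq2 1.42.0, limma-voom (limma 3.58.1), other scalings and filters, GC and length corrections, a replicate block and each mouse left out.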

Additional observations from a re-analysis of the deposited data

How the results depend on the processing

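The number of genes past the threshold was 67 of all genes and depended on the method, with 318 by DESeq2, 312 by the likelihood ratio test, 799 with no filter on low counts, 23 when 1 CPM in 2 libraries was required, 44 with the GC trend removed and 99 to 299 with a mouse left out, the highest without WT 2. The share of lower genes was 74.6% and was 58.5% by DESeq2. The replicate numbers were used as a block in 1 fit, which called 186 genes, the same 3 of the 8 ketone body genes and 12 list genes. Deviations of mice with the same number had a correlation of 0.066. With 2 mice per genotype this value cannot show whether the numbers pair mice.

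Of the 8 genes, 3 were past the threshold, and 1 was by limma-voom and 1 with the filter at 1 CPM, in each case Bdh1, with 2 to 3 when a mouse was left out. Bdh1 was past it in 10 of 10 alternatives, Aacs in 7 and Slc16a1 in 6. The direction turned for Bdh2 (-0.49 without Eko 1, range -0.49 to 0.95), Oxct1 (0.12 without WT 2, range -0.15 to 0.12), Acat2 (0.01 with the length trend removed, 0.01 without WT 1 and 0.02 without Eko 1, range -0.08 to 0.02) and Slc16a6 (0.03 without Eko 2, range -0.08 to 0.03), whose values lie near 0 or rest on few counts. List genes past the threshold numbered 0, but 9 by DESeq2, 8 by the likelihood ratio test, 28 with no filter and 1 to 19 with a mouse left out. With the filter at 1 CPM, 0 genes near the loci were past it. Scaled to the longest transcript, WT levels per kilobase were 9.15 for Bdh1, 38.3 for Acat1, 1.94 for Acat2, 1.12 for Aacs and 1.42 for Slc16a6, and with a prior count of 2, 3 of the 5 profiles nearest Bdh1 were shared. The cause of these changes was not tested. With 2 mice per genotype the spread is poorly known, and p-values measure the spread between these mice alone.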
